A study of Mus musculus with 6 samples.

Results

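The tribbles pseudokinase genes Trib1, Trib2 and Trib3 were examined in mouse oocytes with a conditional knockout (cKO) of Nat10, whose product acetylates cytidine in RNA. These 3 genes, of 55291 rows in the deposited table, were chosen by name as one protein family, because Trib2 had already been seen to be much lower in the knockout. Their differences between the genotypes are therefore given as descriptions without a test. The study compared 3 libraries from Gdf9-cre Nat10 cKO females, in which Cre recombinase driven by the oocyte gene Gdf9 acts on Nat10, with 3 libraries from WT females. Each library held the polyadenylated RNA of 10 fully grown oocytes taken from females injected with PMSG, a gonadotropin that stimulates follicle growth. Collection was 36 to 48 h after the injection according to the protocol, and 32 to 48 h according to the series' design text. The sources used here do not say whether WT females carried the floxed allele or the Cre, how old the animals were beyond mature, or whether the libraries came from separate females, so the spread between libraries may be partly technical.

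Tribbles proteins have the fold of a protein kinase but little or no catalytic activity. They act as scaffolds: the kinase-like part holds a target protein, while a short tail recruits the ubiquitin ligase COP1, so that the target is marked for degradation. The family is named after a Drosophila gene whose product promotes loss of the CDC25 phosphatase String, which holds back cell division in the fly embryo, and loss of the fly C/EBP protein in ovarian follicle cells. In mammals, TRIB1 and TRIB2 are best known for degradation of the transcription factor C/EBPα, and TRIB3 is induced through the transcription factors ATF4 and CHOP during amino acid shortage and endoplasmic reticulum stress and binds the kinase AKT.

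The 3 genes lie on different chromosomes, and their exons overlap no exon of another gene in GENCODE M21 (GRCm38). Trib1 (ENSMUSG00000032501.9) spans bases 59648350 to 59657099 of chromosome 15 on the plus strand. Trib2 (ENSMUSG00000020601.8) spans 15791727 to 15816922 of chromosome 12 on the minus strand, and Trib3 (ENSMUSG00000032715.9) spans 152337422 to 152344032 of chromosome 2 on the minus strand. The coding sequences of the first annotated transcripts are 1119, 1032 and 1065 bases long for Trib1, Trib2 and Trib3, in transcripts of 4330, 4198 and 2026 bases. Aligned coding bases were 67.5% identical between Trib1 and Trib2, 66.0% between Trib1 and Trib3 and 62.9% between Trib2 and Trib3. The longest identical stretch between any 2 of these transcripts was 16 bases, in Trib1 and Trib2, so reads longer than that differ between the paralogs. The stretch is shown in capitals within 46 coding bases of each gene, to let the paralogs be compared where they are most alike (chr15:59654503-59654548 on the plus strand and chr12:15793764-15793809 on the minus strand, GRCm38, GENCODE transcripts).
Trib1: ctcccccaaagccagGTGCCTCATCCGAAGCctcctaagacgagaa
Trib2: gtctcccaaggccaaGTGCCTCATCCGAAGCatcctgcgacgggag

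Promoter windows of Trib2 and Trib3, the paralogs whose levels lay on opposite sides of WT in the knockout, were taken from RefSeq (GRCm38.p6); 2 of the 3 members had an entry. Each window runs from 250 bases before the RefSeq start site to 50 bases after it, on the minus strand, for Trib2 at chr12:15816736-15817035 and for Trib3 at chr2:152344011-152344310. Capitals mark GGGCGG (a GC box) in Trib2, and in Trib3 a match to TGATGNAA, the core of the amino acid response element bound by ATF4 with C/EBP family proteins, here read on the opposite strand.
Trib2: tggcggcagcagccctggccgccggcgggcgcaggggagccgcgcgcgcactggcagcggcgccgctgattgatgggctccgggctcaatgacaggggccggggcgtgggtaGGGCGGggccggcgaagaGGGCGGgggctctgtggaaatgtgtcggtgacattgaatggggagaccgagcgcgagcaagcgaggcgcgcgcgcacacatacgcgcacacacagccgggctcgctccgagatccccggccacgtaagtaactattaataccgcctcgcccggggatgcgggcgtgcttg
Trib3: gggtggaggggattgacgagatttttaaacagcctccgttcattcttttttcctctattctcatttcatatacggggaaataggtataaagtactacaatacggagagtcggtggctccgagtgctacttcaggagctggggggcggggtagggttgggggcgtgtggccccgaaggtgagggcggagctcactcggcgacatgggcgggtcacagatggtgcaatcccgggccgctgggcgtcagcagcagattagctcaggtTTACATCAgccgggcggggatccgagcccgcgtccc
The Trib2 window was 71.0% G or C with 40 CpG dinucleotides, against medians of 53.0% and 7 over 32544 promoter windows of the same length, and the Trib3 window was 58.3% G or C with 21 CpG dinucleotides. GGGCGG, searched on both strands, occurred at 2 places in Trib2 and 4 in Trib3, and in 35.9% of all windows. TGATGNAA, searched on both strands, occurred at 1 place in Trib3 and was not among the letters of the Trib2 window. In Trib3 its first base lies 14 bases after the RefSeq start site. The GENCODE gene starts downstream of the match, at base 152344032, so the match lies before that start. Of all windows, 3.91% hold TGATGNAA. These matches describe letters and do not show binding.

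The recovered reads came to 47.4 to 74.1 M in the Nat10 cKO libraries and 33.5 to 65.5 M in the WT libraries. Nat10 itself had 5.72, 5.97 and 6.32 CPM in Nat10 cKO libraries, against 42.1, 50.1 and 39.4 CPM in WT libraries, where CPM is counts per 1 M reads after TMM scaling, which sets a level against most other mRNA of the library. The 12 oocyte markers examined, led by Gdf9, summed to 28979 to 34163 CPM in Nat10 cKO and 24800 to 25408 CPM in WT libraries, and 8 rose and 3 fell, with Zp1, Zp2 and Zp3 between 1468 and 5629 CPM on average. Relative to the bulk of mRNA, 3190 of 18353 tested genes (17.4%) were higher in Nat10 cKO oocytes and 3232 (17.6%) were lower, 35% in all (limma, Benjamini-Hochberg adjusted p below 0.05). When WT replicate 3 was left out, 2108 were higher and 2201 lower. With the values scaled as the authors deposited them, 1207 (6.58%) were higher and 255 (1.39%) lower, and the median change of all genes was 0.24 on the log2 scale.

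Trib2, the scaffold for C/EBPα degradation, was the most abundant tribbles transcript in WT oocytes and was about 5-fold lower in the knockout. Its level was 5.20, 3.28 and 6.09 CPM in Nat10 cKO replicates 1, 2 and 3, against 29.6, 22.1 and 26.2 CPM in WT replicates 1, 2 and 3. Every Nat10 cKO value lay below every WT value, which was so for 24.2% of tested genes. The values rest on 389, 156 and 440 reads in Nat10 cKO libraries and 958, 770 and 1688 reads in WT libraries. The mean was 4.86 ± 1.44 CPM in Nat10 cKO and 26.0 ± 3.76 CPM in WT oocytes (SD, n = 3 each), a ratio of 0.187. The log2 change, on the log2(CPM + 1) scale used here, was -2.23 (SE 0.184), and 15 of the 18353 tested genes had a lower one. Trib2 was chosen for its fall, so this rank is a description only. The scale also shrinks the changes of genes of low level, which lowers their rank. On the deposited scaling the Trib2 values were 6.71, 2.66 and 7.69 units in Nat10 cKO libraries and 17.97, 19.9 and 29.9 units in WT libraries, with a log2 change of -1.88 (SE 0.392), or -2.12 relative to the median of all genes. Since a library is a pool of oocytes, a lower level in every oocyte and a loss from some of them cannot be told apart.

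Trib1, the paralog closest to Trib2 in coding sequence and the other scaffold for C/EBPα, was also lower in the knockout, by a smaller factor. Its level was 1.26, 0.925 and 1.22 CPM in Nat10 cKO replicates 1, 2 and 3, against 3.06, 2.18 and 2.30 CPM in WT replicates 1, 2 and 3. Every Nat10 cKO value lay below every WT value, as in 24.2% of tested genes, and the gene was read only 94, 44 and 88 times in Nat10 cKO and 99, 76 and 148 times in WT libraries. With each read taken as independent, the 95% exact Poisson interval of counting error was 1.02 to 1.54 CPM in the highest Nat10 cKO library. In the lowest WT library it was 1.72 to 2.73 CPM. Apart from the 99 reads of WT replicate 1, these counts were even, and whether both ends of a fragment were counted is not known. Amplified reads, or both ends of 1 fragment, are not independent molecules. Such intervals are then too narrow and do not show that the groups differ by more than counting error. Trib1 averaged 1.13 ± 0.181 CPM in Nat10 cKO and 2.52 ± 0.476 CPM in WT oocytes (SD, n = 3 each), 2.22-fold lower in the knockout. The pseudocount of 1 is large beside such levels, so the log2 change of -0.72 (SE 0.159) understates this ratio; edgeR, which models the reads themselves, gave -1.14. On the deposited scaling the log2 change was -0.47 (SE 0.284), or -0.71 relative to the median of all genes. The groups of Trib1 and of Trib2 did not overlap on that scaling either, where every Nat10 cKO value lay below every WT value for 3.81% of tested genes.

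Trib3, the stress-induced paralog, stood on the other side of WT, but closer to it. Its level was 1.95, 1.51 and 1.13 CPM in Nat10 cKO replicates 1, 2 and 3, against 0.804, 1.09 and 1.09 CPM in WT replicates 1, 2 and 3. Every Nat10 cKO value lay above every WT value, which was so for 24.1% of tested genes, but Nat10 cKO replicate 3 lay just above the highest WT library. Reads numbered 146, 72 and 82 in Nat10 cKO and 26, 38 and 70 in WT libraries, and the counting interval of Nat10 cKO replicate 3, 0.902 to 1.41 CPM, covers the levels of WT replicates 2 and 3. These counts were all even, so the limit given for Trib1 applies here too, and the interval may be too narrow. The mean was 1.53 ± 0.409 CPM in Nat10 cKO and 0.995 ± 0.165 CPM in WT oocytes (SD, n = 3 each), a ratio of 1.54, and the log2 change was 0.34 (SE 0.160), or 0.62 by edgeR. The log2 change was 0.22 without Nat10 cKO replicate 1. On the deposited scaling the groups overlapped, with 2.52, 1.23 and 1.43 units in Nat10 cKO libraries and 0.488, 0.983 and 1.24 units in WT libraries.

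**Figure D1:**
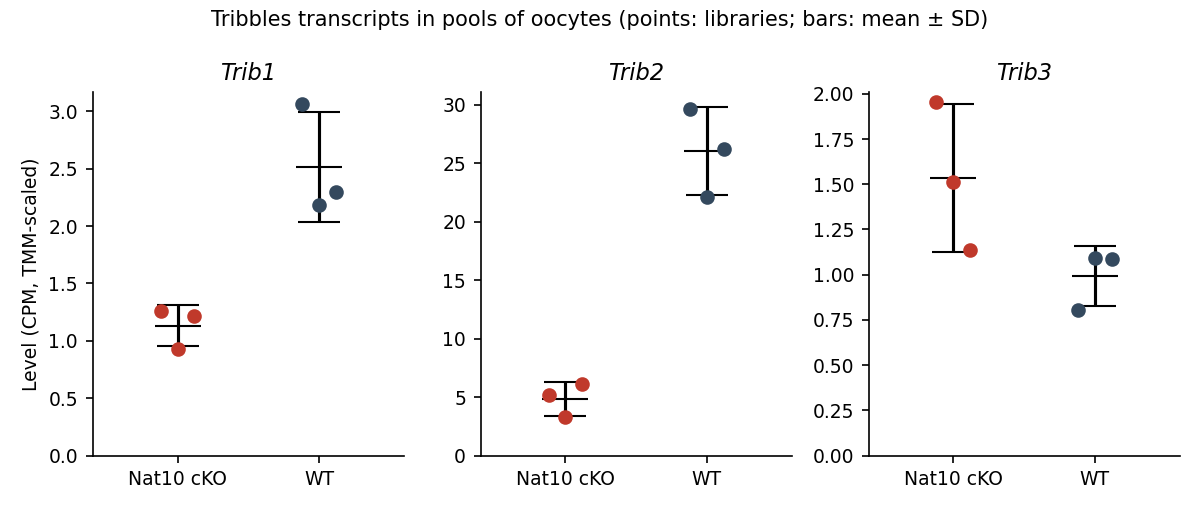
Level of each tribbles transcript in CPM after TMM scaling, 1 point per library, with the mean and SD of each genotype (n = 3). Each vertical axis has its own range and starts at 0. Trib1 and Trib2 points of Nat10 cKO all lie below those of WT, and those of Trib3 lie above, the lowest at 1.13 CPM beside a highest WT library at 1.09 CPM.

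**Figure D2:**
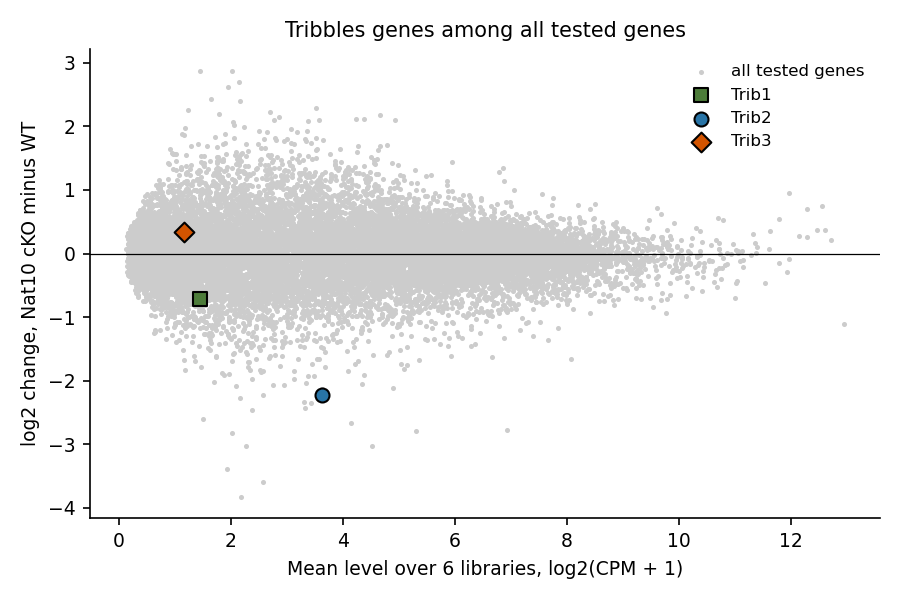
Each grey point is 1 of 18353 tested genes, with the mean of log2(CPM + 1) over all 6 libraries on the horizontal axis and the log2 change, Nat10 cKO minus WT, on the vertical axis. Trib2 lies at the lower edge at -2.23, Trib1 at -0.72 and Trib3 at 0.34, both among the genes of low level.

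Between the paralogs, levels were compared per kilobase of exon, since longer transcripts collect more reads. In Nat10 cKO oocytes the order was Trib2 at 1.12 ± 0.331, Trib3 at 0.722 ± 0.193 and Trib1 at 0.181 ± 0.029 CPM per kb (SD, n = 3). In WT oocytes Trib2 stood at 5.996 ± 0.867, Trib3 at 0.468 ± 0.0777 and Trib1 at 0.403 ± 0.0763 CPM per kb. In the knockout the libraries of Trib2 (0.756 to 1.40) and Trib3 (0.534 to 0.919) overlapped, while in WT those of Trib3 (0.378 to 0.514) and Trib1 (0.349 to 0.490) did. With the length of the first annotated transcript in place of all exons, Trib1 in WT moved to 0.581 ± 0.110, above Trib3 at 0.491 ± 0.0817 CPM per kb, so the order of these 2 in WT depends on which transcript is made.

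Ratios of paralogs within a library do not depend on how libraries are scaled. Trib2 exceeded Trib1 per kb by factors of 5.96, 5.11 and 7.21 in Nat10 cKO libraries, against 13.9, 14.6 and 16.4 in WT libraries. It exceeded Trib3 by factors of 1.31, 1.06 and 2.63 in Nat10 cKO libraries, against 18.1, 9.93 and 11.8 in WT libraries. As shares of the summed family signal per kb, Trib2 made up 46.8 to 65.8% in Nat10 cKO libraries and 85.5 to 88.7% in WT libraries. Trib3 made up 25.0 to 44.1% in Nat10 cKO libraries and 4.91 to 8.61% in WT libraries, and Trib1 8.67 to 9.16% in Nat10 cKO libraries and 5.31 to 6.36% in WT libraries. The share of Trib1 was thus slightly higher although its level was lower, because Trib2 was lower by more. The share of Trib3 likewise reflects the lower Trib2 as well as its own higher level. Summed over the family, the level was 7.52 ± 1.56 CPM in Nat10 cKO and 29.5 ± 4.05 CPM in WT oocytes (SD, n = 3 each). These ratios come from the same comparison that chose the genes and carry no test.

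**Figure D3:**
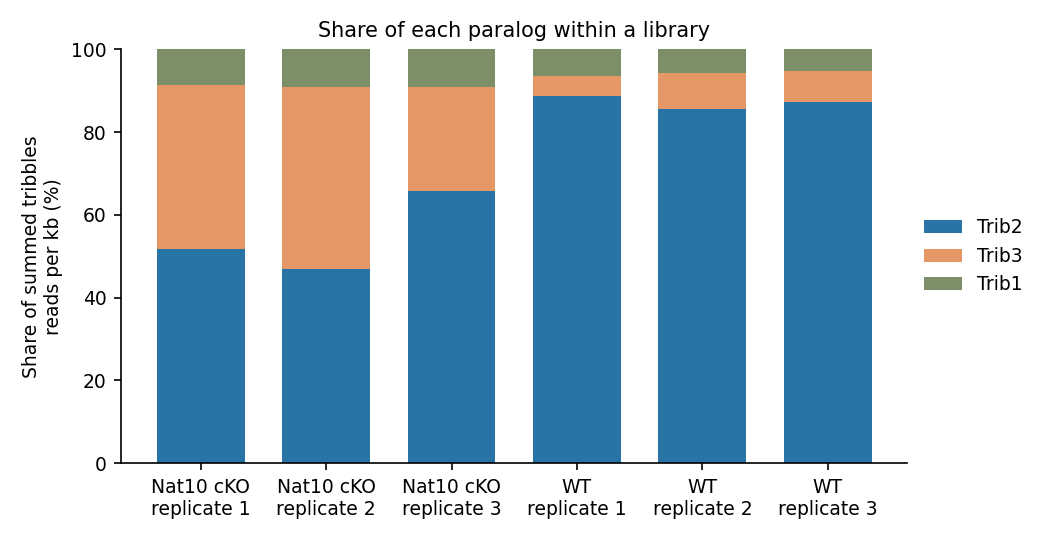
Stacked bars give the share of each paralog, in percent of the summed tribbles reads per kb, for each library. Trib2 takes 46.8 to 65.8% in the 3 Nat10 cKO libraries and 85.5 to 88.7% in the 3 WT libraries, with Trib3 taking up most of the difference in share. In CPM per kb, Trib3 averaged 0.722 in Nat10 cKO and 0.468 in WT oocytes, and Trib2 averaged 1.12 and 5.996. The share of Trib3 thus grew through the lower Trib2 as well as through its own level.

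**Figure D4:**
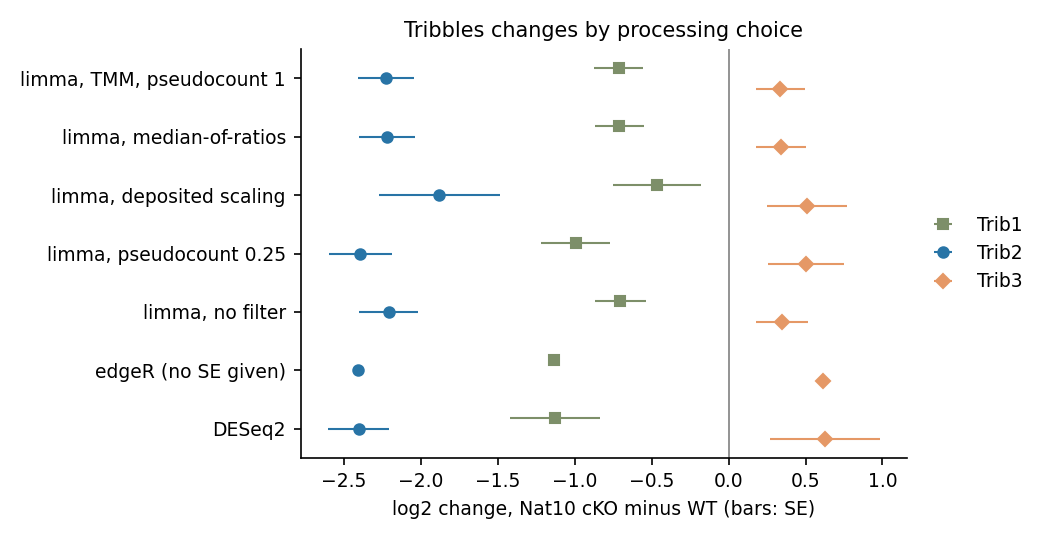
The log2 change of each paralog, Nat10 cKO minus WT, is plotted for 7 ways of processing, with the SE as a bar where the tool gives one. Trib2 lies between -2.41 and -1.88, Trib1 between -1.14 and -0.47 and Trib3 between 0.34 and 0.63, so the sign of each was kept in these 7 ways.

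Markers of cells around the oocyte were measured beside these values, since tribbles genes are not restricted to oocytes. The 12 granulosa cell markers summed to 90.7 to 99.8 CPM in Nat10 cKO and 91.0 to 105 CPM in WT libraries, mostly Cyp19a1 and Nr5a2, and 1 of the 10 tested rose and 2 fell. Foxl2, Amh, Amhr2 and Fshr each averaged at most 1.01 CPM in either group. Inha, the 1 that rose, averaged 5.51 ± 3.42 CPM in Nat10 cKO and 2.00 ± 0.291 CPM in WT oocytes. The 8 theca and stroma markers summed to 4.84 to 5.68 CPM in Nat10 cKO and 4.998 to 6.09 CPM in WT libraries, and 1 of the 5 tested fell. The 8 blood and immune markers summed to 34.9 to 35.4 CPM in Nat10 cKO and 43.9 to 50.04 CPM in WT libraries, and C1qb, the 1 of 3 tested that fell, made up 32.1 and 44.0 CPM of the mean sums. None of these markers was at 0 in all libraries, although the leukocyte marker Ptprc averaged 0.0089 CPM in Nat10 cKO and 0.041 CPM in WT oocytes. The lower blood sum thus rests mainly on C1qb. Of the other tested blood markers, Cd68 averaged 2.24 CPM in Nat10 cKO and 1.78 CPM in WT oocytes. Csf1r averaged 0.577 CPM in Nat10 cKO and 0.907 CPM in WT oocytes, and neither passed. The untested blood markers averaged at most 0.203 CPM in either group. The part of such cells in the levels of Trib1 and Trib2 was not tested.

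The proteins that work with tribbles were read next, from a list of 27 relatives, ligase components and targets. Of 26 tested, 4 rose and 6 fell, 38.5% of the list beside 35% of all tested genes, with a median log2 change of -0.03 beside 0.00 for all. Under the deposited scaling 0 of them rose and 0 fell, and the rises came down to 2 when WT replicate 3 or Nat10 cKO replicate 2 was left out. Of the 9 ligase components, 3 rose and 2 fell, 5 of 9 beside the same 35%. Cop1, the ligase that the tribbles tail recruits, fell to 141 ± 20.4 CPM in Nat10 cKO, against 188 ± 9.57 CPM in WT oocytes (log2 change -0.42, SE 0.105, limma adjusted p = 0.00751). Det1, the adaptor that joins COP1 to the CUL4 ligase, fell as well, to 32.5 ± 0.662 against 45.7 ± 4.09 CPM in WT (log2 change -0.48, SE 0.105, limma adjusted p = 0.00377). Cul4a, a scaffold subunit of that ligase, rose, at 48.3 ± 5.24 CPM in Nat10 cKO and 31.0 ± 4.72 CPM in WT oocytes (log2 change 0.63, SE 0.126, limma adjusted p = 0.00221). Dda1, which encodes a subunit that binds DDB1 in CUL4 ligases, rose to 98.5 ± 9.25 CPM in Nat10 cKO, against 76.8 ± 5.91 CPM in WT oocytes (log2 change 0.35, limma adjusted p = 0.0157), a call lost when WT replicate 1, WT replicate 3 or Nat10 cKO replicate 2 was left out (adjusted p = 0.0528, 0.0784 and 0.0576). Btrc, which encodes a substrate receptor of the SCF ligase, rose to 280.01 ± 7.35 CPM, against 238 ± 4.38 CPM in WT (log2 change 0.23, limma adjusted p = 0.0359), a call lost when any library other than WT replicate 2 or Nat10 cKO replicate 3 was left out (adjusted p between 0.0675 and 0.116). Stk40, a related pseudokinase that also binds COP1, had 21.3 ± 5.004 CPM in Nat10 cKO and 27.9 ± 3.99 CPM in WT oocytes and did not pass (limma adjusted p = 0.0721; 0.00604 without Nat10 cKO replicate 3).

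Of 16 tested targets and bound proteins, 1 rose and 4 fell, 5 of 16 beside 35% of all tested genes. Cebpb, which encodes a C/EBP transcription factor and target of the family, fell to 6.75 ± 2.19 CPM in Nat10 cKO, against 12.9 ± 0.370 CPM in WT oocytes (log2 change -0.89, SE 0.187, limma adjusted p = 0.00289). Cebpa, the best known target, was at 0.065 ± 0.033 CPM in Nat10 cKO and 0.072 ± 0.078 CPM in WT oocytes, too low to be tested. Foxo3, a transcription factor that holds follicles dormant and is held back by TRIB2 in human melanoma cells, fell by 0.54 in log2 units (SE 0.106, limma adjusted p = 0.00184). Sqstm1, the autophagy receptor that TRIB3 binds, rose by 0.52 (SE 0.103, limma adjusted p = 0.00204). Cdc25a, a phosphatase that activates cyclin-dependent kinases and, like Cdc25b, a relative of String, fell to 69.5 ± 12.9 CPM in Nat10 cKO, against 93.4 ± 7.51 CPM in WT oocytes (log2 change -0.43, SE 0.123, limma adjusted p = 0.0150), a call lost when Nat10 cKO replicate 1 or 2 was left out (adjusted p = 0.0747 and 0.0683). Cdc25b, the phosphatase that mouse oocytes need to resume meiosis, is also a relative of the Drosophila tribbles target String. Cdc25b had 92.9 ± 3.94 CPM in Nat10 cKO and 77.4 ± 10.0 CPM in WT oocytes and did not pass (log2 change 0.27, limma adjusted p = 0.0613, and 0.00841 without WT replicate 2). Exons of Cebpb, Det1, Dda1, Btrc, Sqstm1 and Cdc25b overlap those of a gene on the opposite strand, whose reads cannot be told apart without strand.

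The pathway that induces Trib3 runs from kinases of eIF2α through ATF4 and CHOP to genes of amino acid supply. Of 24 tested genes of its 25, 6 rose and 3 fell, 37.5% of the list beside 35% of all tested genes, with a median log2 change of -0.04. Under the deposited scaling 3 rose, Sesn2, Eif2ak2 and Psat1, and 0 fell. Psat1, an enzyme gene of serine synthesis, averaged only 0.462 ± 0.214 CPM in Nat10 cKO and 0.109 ± 0.057 CPM in WT oocytes, and its call under TMM scaling (limma adjusted p = 0.0253) did not survive leaving out any library other than WT replicate 2 or Nat10 cKO replicate 3 (adjusted p between 0.0671 and 0.0917). Leaving out WT replicate 3 gave 2 rises, leaving out Nat10 cKO replicate 2 gave 3 rises and 1 fall, and leaving out Nat10 cKO replicate 3 gave 5 falls. Atf4 had 269 ± 13.9 CPM in Nat10 cKO and 273 ± 22.4 CPM in WT oocytes and did not pass (log2 change -0.02, SE 0.089, limma adjusted p = 0.879). Ddit3, which encodes CHOP, rose to 59.5 ± 4.78 CPM in Nat10 cKO, against 47.2 ± 2.66 CPM in WT oocytes (log2 change 0.32, SE 0.101, limma adjusted p = 0.0234). It no longer passed when WT replicate 3 was left out (adjusted p = 0.108) or when Nat10 cKO replicate 2 was (0.0895), and its exons overlap those of Mars on the opposite strand.

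Other members of that pathway went both ways. Sesn2, which encodes a leucine sensor of the mTORC1 pathway, rose to 3.05 ± 0.771 CPM in Nat10 cKO, against 1.34 ± 0.421 CPM in WT oocytes (log2 change 0.79, SE 0.187, limma adjusted p = 0.00581). Phgdh, the first enzyme of serine synthesis, rose by 0.40 and Slc3a2, the shared heavy chain of several amino acid transporters, by 0.38 (limma adjusted p = 0.0174 and 0.00704). The call of Phgdh was lost without WT replicate 1 (adjusted p = 0.0522) or WT replicate 3 (adjusted p = 0.0932). Eif2ak2, the double-stranded RNA sensor among the eIF2α kinases, was at only 0.779 ± 0.133 CPM in Nat10 cKO and 0.305 ± 0.218 CPM in WT oocytes, and its call (limma adjusted p = 0.0197) did not survive leaving out WT replicate 2, WT replicate 3 or Nat10 cKO replicate 2 (adjusted p = 0.0649, 0.0951 and 0.0666) or dropping the filter (0.0515). Ddit4, an inhibitor of mTORC1, fell by 0.59 (SE 0.145, limma adjusted p = 0.00727), and Cebpg, a dimer partner of ATF4, by 0.46 (limma adjusted p = 0.0132; 0.0594 without Nat10 cKO replicate 2). Exons of Eif2ak2 and Cebpg overlap those of other annotated genes. Asns and Chac1, both textbook targets of ATF4, had log2 changes of 0.19 and -0.07 and did not pass.

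Pseudokinases of other families were listed to set the tribbles changes beside those of proteins with a like fold. Of 18 tested of 22, 6 rose and 3 fell, 9 of 18 beside 35% of all tested genes, with a median log2 change of 0.06. Under the deposited scaling 0 rose and 0 fell. Ulk4, a pseudokinase with roles in cilia, rose to 22.9 ± 1.56 CPM in Nat10 cKO, against 13.0 ± 0.366 CPM in WT oocytes (log2 change 0.77, SE 0.119, limma adjusted p = 0.000411). Pxk, a lipid-binding protein of endosomes, and Vrk3, of the vaccinia-related kinase family, rose by 0.71 and 0.68, and Strada, which activates the kinase LKB1, rose by 0.44. Pan3, the scaffold of a poly(A) nuclease, and Ksr1, a scaffold of the MAP kinase cascade, fell by 0.66 and 0.69 (adjusted p of these 5 between 0.00120 and 0.00879, limma). All changes in this list lay between -0.69 and 0.77 on the log2 scale. Trib1, at -0.72, lay just outside that range and Trib3, at 0.34, inside it. The pseudocount shrinks the changes of genes of low level, such as Trib1 and Trib3. By edgeR the list ran from -0.78 (Mlkl) to 0.82 (Ulk4), Trib1 was further outside, at -1.14, and Trib3 inside, at 0.62. Trib2, at -2.23, was chosen for its fall, so its place outside the range was fixed by that choice. Trib1 and Trib3 were chosen with the same comparison known, so their places are descriptions only. Exons of Ulk4, Vrk3, Strada and Ksr1 overlap those of other genes.

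**Figure D5:**
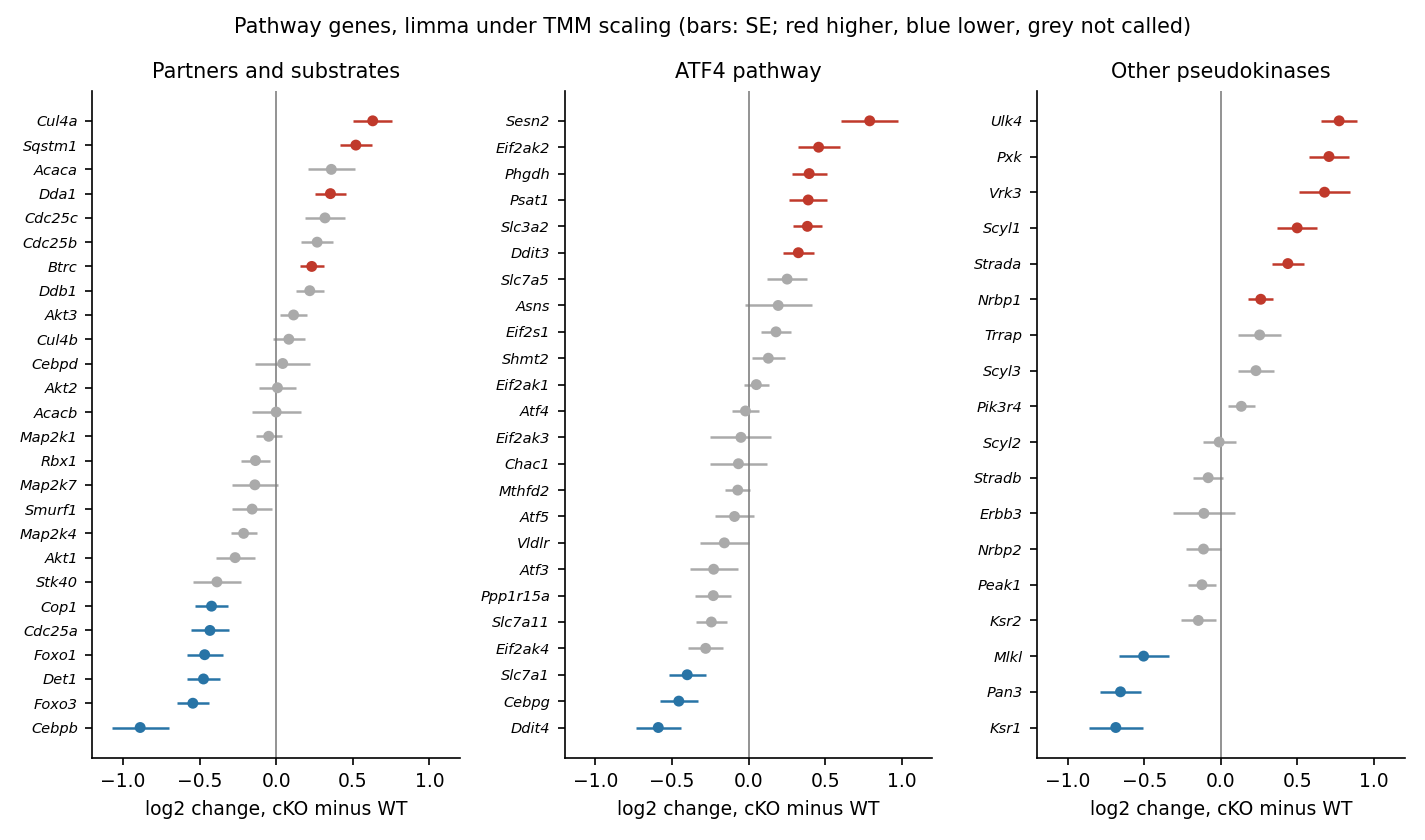
The log2 change, Nat10 cKO minus WT, of each tested gene in the 3 lists, with its SE as a bar. Red points passed the limma threshold upward, blue points downward, and grey points did not pass. The partners had 4 rises and 6 falls, the ATF4 pathway 6 and 3, and the other pseudokinases 6 and 3. Under the deposited scaling 3 genes of the ATF4 pathway rose, and 0 genes of the other lists passed.

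The genes whose profile over the 6 libraries was most like that of each paralog were found by Euclidean distance between centred log2(CPM + 1) values, among 7933 named genes (7932 for Trib2) of at least 10 CPM. For Trib2 the nearest were Chst11, a chondroitin sulfotransferase gene (distance 0.347), Plek, which encodes pleckstrin (0.362), the chemokine receptor gene Cxcr3 (0.459), Cd200, which encodes a membrane glycoprotein (0.534), and Serpinb12, a serpin gene (0.714). Their log2 changes lay between -2.42 and -1.75, on the side that likeness to Trib2 fixes, as it does for the lists of Trib1 and Trib3. Chst11, Plek and Cxcr3 reached a mean of 10 CPM through the WT libraries. Chst11 had 3.65 ± 1.76 CPM in Nat10 cKO and 21.4 ± 3.34 CPM in WT oocytes, and Plek and Cxcr3 had means of 3.35 and 9.05 CPM in Nat10 cKO and 22.2 and 40.5 CPM in WT oocytes. For Trib1 the nearest were Ptpn13, Arhgap29, Dusp18, Btg4 and Trim15, at distances of 0.107 to 0.131, with log2 changes between -0.78 and -0.63. Of these, Btg4 encodes the adaptor of the deadenylase that removes maternal mRNA. For Trib3 the nearest were Itfg1, Zfp994, Ddx25, Mtif2 and Fanci, at distances of 0.180 to 0.207, with log2 changes between 0.29 and 0.36. The pseudocount shrinks changes at the low levels of Trib1 and Trib3 more than those of the genes listed for them. These genes are thus alike on the log2(CPM + 1) scale, not in fold change. Btg4 had means of 1601 CPM in Nat10 cKO and 2609 CPM in WT oocytes, against 1.13 and 2.52 CPM for Trib1. Itfg1 had means of 69.6 and 55.3 CPM, against 1.53 and 0.995 CPM for Trib3. Exons of Plek, Ptpn13, Itfg1 and Fanci overlap those of other genes. The distances follow mainly the size of the difference between the genotypes on the log2(CPM + 1) scale and are a description of these libraries.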

How the data were processed

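Messenger RNA of pooled oocytes was measured by Smart-seq2. Trim Galore 0.6.7, STAR 2.7.10a, featureCounts and mm10 were named, per the submitters' processing notes; the sources used here do not give the settings, the annotation or the use of strand. For WT replicate 1 the authors deposited read counts per gene. For the other 5 libraries they deposited a scaled signal, in which whole reads had been multiplied by 1 factor per library, between 0.908 and 1.38. The factor's formula is not stated; the series' design text names the ERCC spike-in for calibration. Reads were recovered by division by the smallest value above 0 of a library, and 100% of values above 0 came out whole, within 0.001.

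Recovered reads were scaled by TMM (edgeR 4.0.16) and fitted with limma 3.58.1 (trended, robust) on log2(CPM + 1) over the 18353 genes that passed filterByExpr with a minimum count of 10; all 3 members passed. The edgeR test on recovered reads was an alternative: it called 3053 genes higher and 3149 lower. The deposited scaling divides deposited values by 1 constant for all libraries, so depth is removed only as far as the factors remove it. Tests were two-sided, with Benjamini-Hochberg adjustment over the tested genes and calls below 0.05. The members, lists and naming rules were chosen with earlier results of these data known. Named genes were the members, Nat10, 7 genes fixed by name (Stk40, Cop1, Det1, Cebpb, Cdc25b, Atf4 and Ddit3), up to 6 called genes of smallest p per list, and the 5 genes most like each member; Dda1, Btrc, Cdc25a, Cebpa, Asns, Chac1, Psat1, the markers and the neighbours of the members were named outside this rule, after their values were seen. Lengths came from GENCODE M21 (GRCm38, the assembly of mm10), to which 53292 of 55291 symbols matched. R 4.3.3, DESeq2 1.42.0, Python 3.11.15 and Biopython 1.88 were used.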

Additional observations from a re-analysis of the deposited data

How the results depend on the processing

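Fits with other scalings, pseudocounts, filters and tools, and without each library in turn, kept the sign of all 3 members. The change of Trib1 was -0.99 with a pseudocount of 0.25, -1.14 by edgeR, -1.13 by DESeq2 and -0.47 on the deposited scaling. That of Trib2 was -1.88 on the deposited scaling, and that of Trib3 0.62 by edgeR and 0.63 by DESeq2. Without single libraries, Trib1 ranged over -0.78 to -0.61, Trib2 over -2.38 to -2.01 and Trib3 over 0.22 to 0.45. On the deposited scaling 1207 genes were higher and 255 lower; 0 partners rose and 0 fell, 3 genes of the ATF4 list rose and 0 fell, and 0 other pseudokinases rose and 0 fell; the cause was not tested. Without single libraries, genes called ranged over 2108 to 3431 higher and 2201 to 3334 lower, partners over 2 to 6 and 5 to 8, the ATF4 list over 2 to 6 and 1 to 5, and pseudokinases over 4 to 7 and 2 to 3. The log2 change of Atf4, never called, turned to 0.34 on the deposited scaling; without single libraries it ranged over -0.065 to 0.055 and was above 0 in 3 of 6 such fits. Those of Nsmce2 and Zcchc3 turned to 0.075 and 0.0071 on the deposited scaling. Of 390 values of 30 named genes under other settings, 328 kept sign and side of the threshold, 54 lost the call, 2 gained it and 6 changed sign. Deviations of same-numbered libraries had correlations of 0.079, 0.075 and -0.12 over 18353 genes, and those of differently numbered ones ranged over -0.23 to 0.24. With 3 libraries per genotype these values cannot show whether libraries were paired, so the replicate number was used only to name a library. With the number as a replicate block, Trib1, Trib2 and Trib3 had changes of -0.72, -2.23 and 0.34, and 3070 genes were higher and 3164 lower. Depth limits Trib1 and Trib3, at 44 to 148 and 26 to 146 reads per library.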

Other observations

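Genes annotated within 100 kb of each paralog were read as a description of its surroundings. Gm5432, a long noncoding RNA gene that starts 81 bases from the outermost annotated start of Trib2 and runs the other way, had 2, 0 and 2 reads in Nat10 cKO libraries and 0, 0 and 0 reads in WT libraries. All 5 genes near Trib2 were too low to be tested. Near Trib1, the 1 tested gene of 3 was Nsmce2, which encodes a SUMO ligase subunit of the SMC5/6 complex, at 267 ± 4.36 CPM in Nat10 cKO and 328 ± 43.3 CPM in WT oocytes (SD, n = 3 each; log2 change -0.29, limma adjusted p = 0.0371). Its call was lost on the deposited scaling, with no filter and without any single library other than WT replicate 2 (adjusted p between 0.0587 and 0.175 without single libraries). Of 8 tested genes near Trib3, 1 rose and 1 fell, 2 of 8 beside 35% of all tested genes. Sox12, a SOX transcription factor gene 49.6 kb away, rose to 3.16 ± 0.309 CPM in Nat10 cKO, against 1.31 ± 0.668 CPM in WT oocytes (log2 change 0.89, limma adjusted p = 0.00368). Zcchc3 fell to 62.3 ± 2.78 CPM, against 79.8 ± 7.94 CPM in WT (log2 change -0.35, limma adjusted p = 0.0153), a call lost on the deposited scaling, with no filter, and when WT replicate 2 or Nat10 cKO replicate 1 was left out (adjusted p = 0.0504 and 0.0830). The genes adjoining Trib3, Rbck1 and Gm14164, had log2 changes of 0.16 and -0.26 and did not pass.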
